A study of Homo sapiens with 6 samples.

Results

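The 34 genes described here encode the enzymes and regulators of sterol and fatty acid synthesis that the SREBP transcription factors are known to activate. They were named by symbol, with earlier results of these data known, 22 in the sterol arm and 12 in the fatty acid arm. All 34 had a mean normalized read count of 10 or more over the 6 libraries, among 34114 genes in the table. The lowest mean belonged to PNPLA3. The libraries were made from messenger RNA of 3 established human acute myeloid leukemia (AML) cell lines, MOLM-14, NOMO-1 and SKM-1, all with monocytic or monoblastic features. In the NCAM1_knockdown group (3 libraries, 1 per line) the cells had received an shRNA against NCAM1, an adhesion protein of the cell surface also known as CD56. In the control_shRNA group (3 libraries, 1 per line) they had received a scrambled shRNA, and both groups were sampled at 72 h. All 6 libraries thus come from transfected cells, and none from untreated ones. The sources used here do not say whether the cells of a line were a pool or 1 clone, nor whether the same hairpin served in each line. The column headers mark the MOLM-14 and NOMO-1 knockdown libraries alike, and that of SKM-1 by the same mark with a letter added, whose meaning is not stated. The study asked what NCAM1 does in leukemia cells, and its design sets each knockdown library against the control library of the same line.

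Cells make cholesterol from acetyl-CoA through mevalonate, farnesyl diphosphate, squalene and lanosterol, and they make fatty acids from the same acetyl-CoA through malonyl-CoA and palmitate. SREBP2, encoded by SREBF2, mainly drives the sterol genes, and SREBP1, encoded by SREBF1, mainly the fatty acid genes. Both precursors sit in the endoplasmic reticulum, where INSIG1 holds them back when sterols are plentiful. When sterols run low they are cut in the Golgi, and the freed parts enter the nucleus and bind sterol regulatory elements, often beside binding sites of the factor NF-Y.

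Promoter windows show which of the letters bound by these factors lie just before the genes. RefSeq windows of GRCh38.p14 were found for 29 of the 34 genes, and the 250 bases before the annotated start were searched on both strands. The sterol regulatory element was searched as TCACNCCAC and occurred in 1 of the 29, SREBF2, against 1.09% of 27305 gene symbols with a window. Its shorter core CACNCCAC, which the first motif contains, occurred in 6 of the 29, against 5.89% of symbols. The NF-Y letters CCAAT occurred in 21 of the 29, or 72.4% (16 of 19 sterol and 5 of 10 fatty acid genes), against 37.0% of symbols. GGGCGG, the letters of the SP1 factor, occurred in 26 of the 29, or 89.7%, against 46.2% of symbols. The palindromic E-box CACGTG occurred in 3 of the 29, against 7.73% of symbols. Such matches are letters, not measured binding sites, and the windows have different base compositions. The 6 windows below are those of a regulator with the full element, of genes whose values carry the comparisons that follow, and of LBR, which held none of the 5 motifs. They run 5′ to 3′ on the gene's strand and end at the base before the start, with TCACNCCAC and CCAAT (or its reverse complement ATTGG) in capitals. Their positions are chr22:41832855-41833104, plus strand, for SREBF2, chr5:43313413-43313662, minus strand, for HMGCS1, and chr21:46228775-46229024, minus strand, for LSS. For the others they are chr7:155297628-155297877, plus strand, for INSIG1, chr10:100346983-100347232, plus strand, for SCD, and chr1:225428822-225429071, minus strand, for LBR.
SREBF2: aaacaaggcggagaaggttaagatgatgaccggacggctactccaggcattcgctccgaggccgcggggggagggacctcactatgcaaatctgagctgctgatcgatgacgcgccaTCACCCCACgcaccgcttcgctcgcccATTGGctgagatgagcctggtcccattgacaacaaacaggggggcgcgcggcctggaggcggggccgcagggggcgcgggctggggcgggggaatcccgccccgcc
HMGCS1: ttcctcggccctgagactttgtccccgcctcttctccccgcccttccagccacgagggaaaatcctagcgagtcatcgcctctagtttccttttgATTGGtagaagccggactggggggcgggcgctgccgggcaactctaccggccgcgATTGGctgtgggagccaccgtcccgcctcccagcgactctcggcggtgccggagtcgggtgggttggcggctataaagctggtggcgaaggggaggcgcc
LSS: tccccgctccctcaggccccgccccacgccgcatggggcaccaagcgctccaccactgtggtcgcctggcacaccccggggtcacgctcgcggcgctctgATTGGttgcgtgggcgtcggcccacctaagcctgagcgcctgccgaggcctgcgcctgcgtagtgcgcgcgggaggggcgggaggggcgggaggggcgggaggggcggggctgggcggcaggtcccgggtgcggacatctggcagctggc
INSIG1: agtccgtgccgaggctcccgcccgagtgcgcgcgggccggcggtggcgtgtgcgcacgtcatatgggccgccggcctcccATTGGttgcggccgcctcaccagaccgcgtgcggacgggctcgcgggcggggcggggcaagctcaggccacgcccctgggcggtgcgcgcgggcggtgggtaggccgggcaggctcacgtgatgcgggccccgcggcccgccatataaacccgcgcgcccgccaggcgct
SCD: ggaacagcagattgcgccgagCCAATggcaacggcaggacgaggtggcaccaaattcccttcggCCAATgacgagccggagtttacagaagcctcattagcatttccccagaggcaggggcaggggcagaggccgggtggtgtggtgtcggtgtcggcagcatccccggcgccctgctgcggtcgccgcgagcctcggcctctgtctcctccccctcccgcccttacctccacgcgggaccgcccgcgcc
LBR: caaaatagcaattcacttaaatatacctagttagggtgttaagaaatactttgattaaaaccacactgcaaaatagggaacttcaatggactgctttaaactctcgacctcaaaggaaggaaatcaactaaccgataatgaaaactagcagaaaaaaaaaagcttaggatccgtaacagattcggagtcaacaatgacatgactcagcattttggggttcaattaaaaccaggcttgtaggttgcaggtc
In SREBF2 the element lay at positions -133 to -125, counted back from the start, and a CCAAT box in reverse followed at -106 to -102. HMGCS1 held 2 reversed CCAAT boxes, LSS and INSIG1 1 each, and SCD 2 in forward direction.

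The target was checked first. NCAM1 (ENSG00000149294) had 1896, 312 and 101 normalized reads in the MOLM-14, NOMO-1 and SKM-1 knockdown libraries, against 6004, 1163 and 12537 in their control libraries. It was 3.17-fold, 3.73-fold and 124-fold lower, with a mean log2 ratio of -3.50 ± 2.98 (SD, n = 3 lines; adjusted p = 0.779 in limma). Gene-assigned reads numbered 43745763 to 47688779 in the knockdown libraries and 41916991 to 45542099 in the control libraries. The 2 SKM-1 libraries stood further apart than the others: 32.2% of the 19575 genes tested differed at least 2-fold between them, against 7.58% in MOLM-14 and 11.5% in NOMO-1. MPO, a granule enzyme of myeloid cells named here after its values were seen, had 6166 normalized reads in the SKM-1 knockdown library, against 728824 in its control. The 10 AML and monocytic markers summed to 36185 to 73100 normalized reads in knockdown libraries, against 42055 to 765921 in control libraries. Markers of erythroid cells (2 of 4 in the table) and of liver cells (2 of 3) summed to at most 35.6 in any library. T and NK cell markers summed to 766 to 4162 in knockdown libraries, against 1265 to 5395 in control libraries. B cell markers summed to 102 to 2164 in knockdown libraries, against 439 to 1290 in control libraries. Epithelial and stromal markers summed to 765 to 3632 in knockdown libraries, against 436 to 2687 in control libraries. None of the markers in the table was at 0 in all 6 libraries, and those absent from it could not be checked. The part of these differences in the values below was not tested. Several main counts are therefore also given without the SKM-1 pair, but not those of non-overlapping groups or of alternative fits. In bulk libraries, fewer cells of a type and less RNA per cell cannot be told apart.

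Across the 3 lines, transcripts of most sterol and fatty acid synthesis genes were less abundant in knockdown than in control libraries. The genes were chosen with earlier results of these data known, so the shares of all genes beside their counts describe and test nothing. The mean log2 ratio was below 0 for 31 of the 34 genes, against 50.6% of all genes tested. In every line 24 of the 34 were lower, against 15.9% of all genes. Of these, 16 belonged to the 22 of the sterol arm and 8 to the 12 of the fatty acid arm. For 9 genes (MVD, FDPS, SQLE, LSS, NSDHL, ACLY, FASN, FADS2 and PNPLA3) every knockdown library lay below every control library, whatever the line, against 2.3% of all genes. The median of the mean log2 ratios was -0.66 over the 34 genes, -0.81 over the sterol arm and -0.54 over the fatty acid arm, against -0.01 over all genes tested. Leaving out SKM-1 gave a median of -0.87 in the sterol arm and of -0.75 in the fatty acid arm, and 31 of the 34 were lower in both remaining lines, against 29.6% of all genes.

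No single gene passed the test across the table. In limma, with the line as a block, 0 of the 34 genes had an adjusted p under 0.05, as did 0% of all 19575 genes. At an unadjusted p under 0.05, 20 of the 34 were lower (15 sterol, 5 fatty acid), against 2.89% of all genes, and 1 was higher, ME1, against 1.59%. In edgeR's quasi-likelihood fit to the recovered reads, 863 of all 19575 genes had an unadjusted p under 0.05, in either direction. With that fit 0 of the 34 were called either, and 20 were lower by the unadjusted p. When the reads were fitted with DESeq2, 4 of them were called lower, LSS (adjusted p = 0.0025), SQLE (adjusted p = 0.0062), FDPS and INSIG1 (both adjusted p = 0.0349), against 0.208% of the 15400 genes with an adjusted p there. The count of 20 became 8 when MOLM-14 was left out, 6 when NOMO-1 was left out and 28 when SKM-1 was left out. How many of all genes were lower at that p in these fits was not counted. The 8, 6 and 28 thus cannot be set against a background. With 3 lines the smallest two-sided p of an exact sign-flip permutation test on a single gene is 0.25, and these p values rest on the spread between lines.

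**Figure D1:**
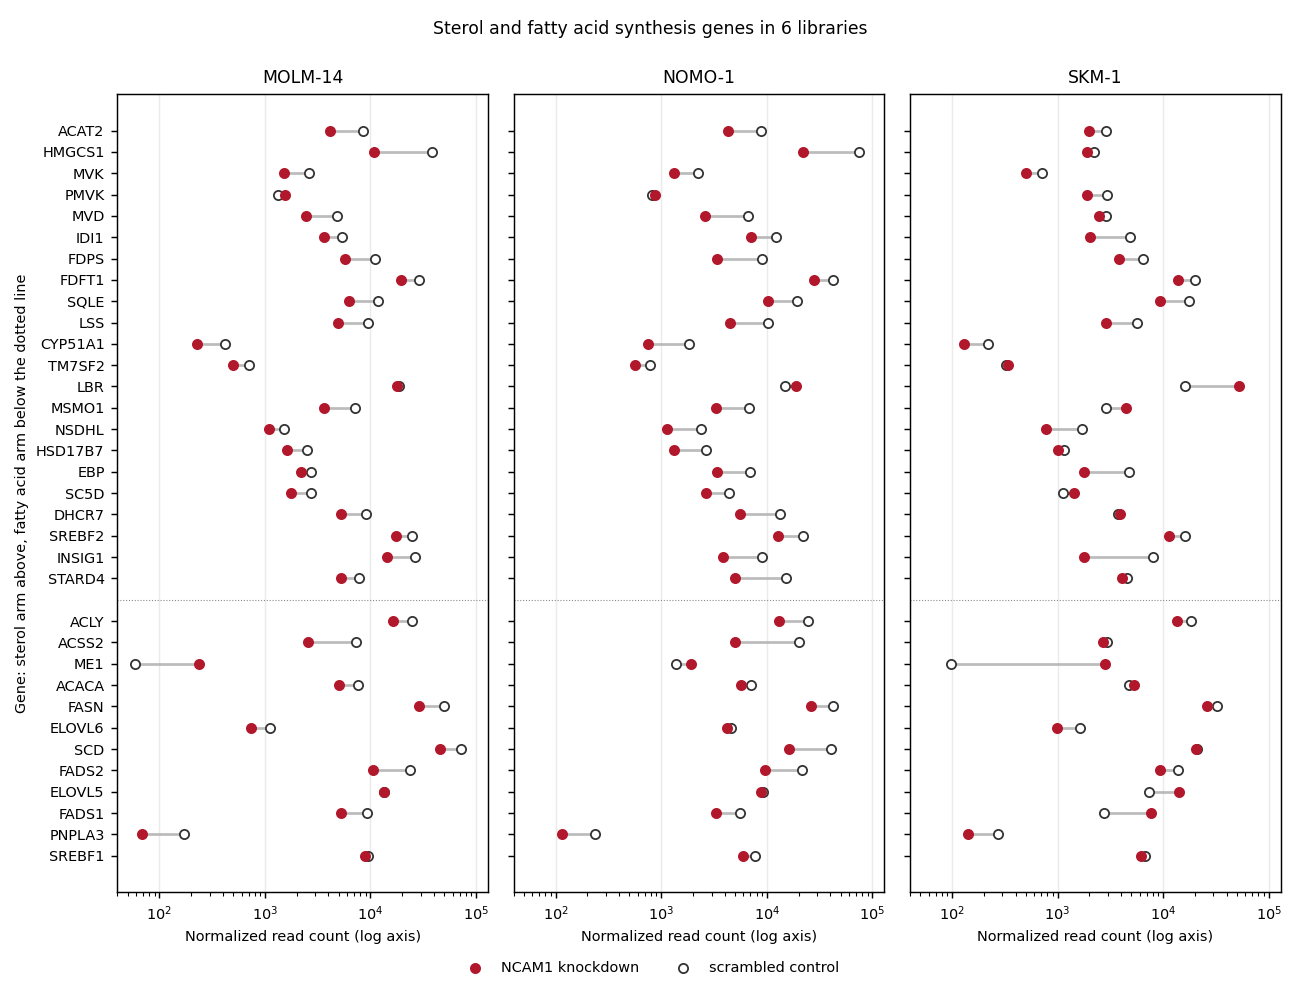
Normalized read counts (log axis) of the 34 genes in the knockdown library (filled) and the control library (open) of each line, in pathway order with the sterol arm above the dotted line. In MOLM-14 and NOMO-1 the filled points lie to the left for most genes, as for HMGCS1 at 10881 against 37988 in MOLM-14, while in SKM-1 LBR, ME1 and FADS1 lie to the right.

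The early steps of the sterol arm, from acetyl-CoA to farnesyl diphosphate, are made by 7 of the genes, all with a lower mean and a median log2 ratio of -0.87. ACAT2 (ENSG00000120437), which joins acetyl-CoA units to acetoacetyl-CoA, had 4121, 4295 and 1975 normalized reads in the MOLM-14, NOMO-1 and SKM-1 knockdown libraries, against 8461, 8868 and 2853 in their controls. Its 2 SKM-1 libraries were the lowest of their groups. The groups overlapped, since SKM-1 control cells held less than the other lines' knockdown cells. In the GRCh38 annotation ACAT2 shares exon bases with genes on the opposite strand, so its count is uncertain. They are 397 with TCP1, 1141 with SOD2 and 1458 with SOD2-OT1. HMGCS1 (ENSG00000112972) makes HMG-CoA from acetoacetyl-CoA. It had 10881, 22251 and 1891 normalized reads in the knockdown libraries, against 37988, 74621 and 2221 in the controls. That is 3.49-fold lower in MOLM-14 (95% counting interval 3.42 to 3.57), 3.35-fold lower in NOMO-1 (3.31 to 3.40) and 1.17-fold lower in SKM-1 (1.11 to 1.25). HMGCS1 was the most abundant sterol enzyme per kb of exon in the MOLM-14 and NOMO-1 controls and the 14th of 19 in the SKM-1 control. These intervals, exact for the ratio of 2 read counts, cover counting error only, since each line has 1 library per condition.

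The next enzymes phosphorylate mevalonate, decarboxylate it and join the isoprene units. MVK, mevalonate kinase, had 1521, 1322 and 499 normalized reads in the MOLM-14, NOMO-1 and SKM-1 knockdown libraries, against 2638, 2241 and 709 in the controls. PMVK, phosphomevalonate kinase, was the exception of this segment, with 1554, 875 and 1919.8 normalized reads in the knockdown libraries, against 1337, 817 and 2931 in the controls. Only its SKM-1 pair was lower, at a log2 ratio of -0.61, and its MOLM-14 and NOMO-1 log2 ratios were 0.22 and 0.10. MVD, which makes isopentenyl diphosphate, had log2 ratios of -0.95, -1.35 and -0.22 in MOLM-14, NOMO-1 and SKM-1. IDI1, which isomerises isopentenyl diphosphate, had 3653, 7157 and 2011 normalized reads in the knockdown libraries, against 5409.7, 12326 and 4857 in the controls. For IDI1 the difference was largest in SKM-1, 2.42-fold, the opposite order from HMGCS1. FDPS (ENSG00000160752), farnesyl diphosphate synthase, had 5747, 3356 and 3785 normalized reads in the knockdown libraries, against 11036, 8999 and 6509.9 in the controls. Its groups did not overlap, and its mean log2 ratio was -1.05 ± 0.33 (SD, n = 3 lines; limma SE 0.19, adjusted p = 0.779). FDPS has pseudogene copies and shares exon bases with an antisense gene, so its counts are uncertain to that extent.

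The 3 steps from farnesyl diphosphate to lanosterol gave ratios close to each other in the 3 lines. FDFT1, squalene synthase, had a ratio of knockdown over control of 0.668 in both MOLM-14 and NOMO-1, and of 0.678 in SKM-1. SQLE (ENSG00000104549), squalene epoxidase, a rate-limiting step of the pathway, had 6256, 10248 and 9375 normalized reads in the knockdown libraries, against 11730.5, 19214 and 17535 in the controls. Every knockdown library lay below every control, and the fold differences were 1.88 (95% counting interval 1.82 to 1.94), 1.87 (1.83 to 1.92) and 1.87 (1.83 to 1.92). Its mean log2 ratio was -0.91 ± 0.0020 (SD, n = 3 lines), and limma, which moderates the spread by that of other genes, put the SE at 0.14 (adjusted p = 0.779). LSS (ENSG00000160285), lanosterol synthase, had 4893, 4509 and 2866 normalized reads in the knockdown libraries, against 9516, 10170.1 and 5628 in the controls. Its groups did not overlap either, and it had the smallest unadjusted p of the 34, 0.0013 in limma (mean log2 ratio -1.04 ± 0.12, SD, n = 3 lines; SE 0.16, adjusted p = 0.779).

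From lanosterol to cholesterol the lines gave different counts. In MOLM-14 all 9 genes of these steps were lower and in NOMO-1 8 of 9, with median log2 ratios of -0.64 and -1.02. Of all 19575 genes tested, 9678 were lower in MOLM-14 and 9792 in NOMO-1. In SKM-1 4 were lower and 5 higher, with a median of 0.05. This split was close to that of all genes in SKM-1, 9896 lower and 9399 higher. All 10 genes up to lanosterol were lower in that line, with a median of -0.59. CYP51A1, lanosterol demethylase, had 227, 744 and 130.4 normalized reads in the MOLM-14, NOMO-1 and SKM-1 knockdown libraries, against 417, 1837 and 219 in the controls, lower in each line. In the GRCh38 annotation CYP51A1 shares 2844 exon bases with another gene on the same strand, so its count is uncertain. MSMO1, which removes the methyl groups of the next intermediates, had 3611, 3338 and 4471 normalized reads in the knockdown libraries, against 7091, 6747 and 2863 in the controls. It was 1.96-fold lower in MOLM-14 and 2.02-fold lower in NOMO-1, but 1.56-fold higher in SKM-1 (95% counting interval 1.49 to 1.64).

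LBR and TM7SF2 encode the alternative sterol reductases of this stretch, and LBR also anchors chromatin at the nuclear envelope. LBR had 17976, 18899 and 52265 normalized reads in the MOLM-14, NOMO-1 and SKM-1 knockdown libraries, against 18733, 15039 and 16249.97 in the controls. The SKM-1 knockdown library was far above the other 5, and the log2 ratios were -0.06, 0.33 and 1.69. TM7SF2 had log2 ratios of -0.47, -0.46 and 0.06. NSDHL and HSD17B7, which act with MSMO1 in demethylation, were lower in each line, by log2 ratios of -0.47, -1.07 and -1.13 for NSDHL and of -0.64, -1.03 and -0.21 for HSD17B7, a gene with pseudogene copies. EBP, the sterol isomerase, had log2 ratios of -0.31, -1.02 and -1.41, lowest in SKM-1. SC5D, the desaturase after it, and DHCR7, which makes cholesterol from its last precursor, were lower in MOLM-14 and NOMO-1 and had SKM-1 log2 ratios of 0.35 and 0.05. Summed over the 9 genes, normalized reads in SKM-1 came to 66109.8 in knockdown and 32184 in control cells, a ratio of 2.05 in which LBR is the largest part. Without LBR, left out after its values were seen, the other 8 genes summed to 13844 in knockdown and 15934 in control cells of SKM-1, a ratio of 0.869.

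**Figure D2:**
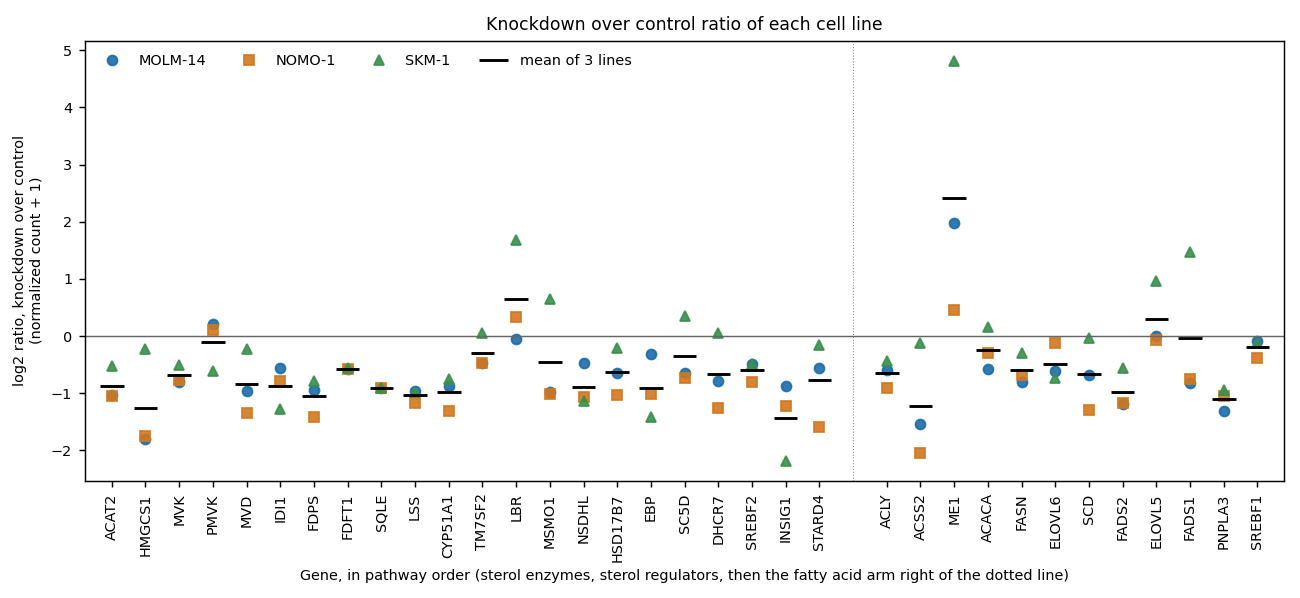
Log2 ratio of knockdown over control for each gene in pathway order, 1 marker per cell line, with bars at the mean of 3 lines and a dotted line between the sterol and the fatty acid arm. FDFT1, SQLE and LSS show the 3 markers close together below 0, while the SKM-1 triangles of later genes lie on both sides of 0, at 1.69 for LBR, -2.18 for INSIG1 and 4.81 for ME1.

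The regulators of the sterol arm were lower in all 3 lines. SREBF2 (ENSG00000198911) had 17532, 12742 and 11487 normalized reads in the MOLM-14, NOMO-1 and SKM-1 knockdown libraries, against 24632, 22230.2 and 16197 in the controls, with a mean log2 ratio of -0.60 ± 0.18 (SD, n = 3 lines). The groups overlapped, since the MOLM-14 knockdown library lay above the SKM-1 control. INSIG1 (ENSG00000186480), itself a target of SREBPs, had 14410.2, 3880.1 and 1775 normalized reads in the knockdown libraries, against 26493, 9022 and 8032 in the controls. It was 1.84-fold lower in MOLM-14, 2.33-fold in NOMO-1 and 4.53-fold in SKM-1 (95% counting interval 4.31 to 4.76), and its mean log2 ratio of -1.42 ± 0.67 (SD, n = 3 lines; limma SE 0.29, adjusted p = 0.779) was the lowest of the 34. STARD4, which carries cholesterol between membranes, had log2 ratios of -0.57, -1.59 and -0.15.

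In the fatty acid arm the first enzymes supply acetyl-CoA and NADPH. ACLY, which makes cytosolic acetyl-CoA from citrate, had 16430.2, 12997 and 13671 normalized reads in the MOLM-14, NOMO-1 and SKM-1 knockdown libraries, against 24698, 24493 and 18477 in the controls, without overlap of the groups. ACSS2, which makes it from acetate, had log2 ratios of -1.53 and -2.04 in MOLM-14 and NOMO-1 and of -0.12 in SKM-1. It was 4.11-fold lower in NOMO-1 (95% counting interval 3.99 to 4.24), the largest fold decrease in that line among the 34. ME1 (ENSG00000065833), the cytosolic malic enzyme, which makes NADPH, ran the other way and had 236, 1906 and 2800.3 normalized reads in the knockdown libraries, against 59.1, 1388 and 98.6 in the controls. It was the only one of the 34 higher in all 3 lines, 3.99-fold in MOLM-14 (2.95 to 5.49), 1.37-fold in NOMO-1 (1.28 to 1.47) and 28.4-fold in SKM-1 (23.2 to 35.1). Its mean log2 ratio was 2.42 ± 2.21 (SD, n = 3 lines; limma SE 0.85, adjusted p = 0.779). Leaving out SKM-1 made this mean 1.22.

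The 4 genes that lead from acetyl-CoA to palmitate and on to oleate all had a lower mean. ACACA, which makes malonyl-CoA, had log2 ratios of -0.57, -0.30 and 0.15 in MOLM-14, NOMO-1 and SKM-1. FASN, which makes palmitate, had 28569, 26255 and 26254 normalized reads in the knockdown libraries, against 49863, 42079 and 32131 in the controls. The 3 knockdown values of FASN lay close together, below all controls, and the ratio was smallest in size in SKM-1. ELOVL6, which elongates palmitate, had 739, 4205 and 978 normalized reads in the knockdown libraries, against 1127, 4549 and 1635 in the controls. It was 1.53-fold lower in MOLM-14, 1.08-fold in NOMO-1 and 1.67-fold in SKM-1. SCD, which makes oleate and was the most abundant of the arm per kb of exon in each control (ACACA, without a matched length, left aside), had log2 ratios of -0.67, -1.30 and -0.03.

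In the polyunsaturated branch the lines differed in direction. FADS2, the first desaturase of that branch, had 10465, 9568 and 9389 normalized reads in the MOLM-14, NOMO-1 and SKM-1 knockdown libraries, against 23909, 21461 and 13795 in the controls, without overlap. FADS1, the desaturase that follows, had 5223, 3296 and 7617 normalized reads in the knockdown libraries, against 9259, 5528 and 2763 in the controls. FADS1 was 1.77-fold lower in MOLM-14 and 1.68-fold lower in NOMO-1 but 2.76-fold higher in SKM-1 (95% counting interval 2.64 to 2.88), while its neighbour FADS2 was lower in all 3. Those genes share 490 exon bases on opposite strands, and the sources used here do not give the strand setting of the counting. ELOVL5, which elongates their products, had log2 ratios of -0.01, -0.07 and 0.97. PNPLA3, a lipid droplet lipase, had 67.9, 114 and 140.5 normalized reads in the knockdown libraries, against 171, 236 and 271 in the controls, without overlap. It was the only gene of this arm at least 1.5-fold lower in all 3 lines. SREBF1 (ENSG00000072310) had 8864, 5925 and 6132 normalized reads in the knockdown libraries, against 9457, 7694 and 6695 in the controls, with a mean log2 ratio of -0.20 ± 0.15 (SD, n = 3 lines). Its ratios were smaller in size than those of SREBF2 in each line, a difference that was not tested.

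Counted by line, 21 of the 34 genes were at least 1.5-fold lower in MOLM-14, against 9.15% of all genes, and 25 in NOMO-1, against 16.8%. In SKM-1 it was 11 of 34, against 27.4% of all genes, a share close to the background of that line. There 5 genes (LBR, MSMO1, ME1, ELOVL5 and FADS1) were at least 1.5-fold higher, against 25.3% of all genes. All 3 lines together gave 6 genes, FDPS, SQLE, LSS, CYP51A1, INSIG1 and PNPLA3, against 1.24% of all genes. Without SKM-1, 20 genes were at least 1.5-fold lower in both remaining lines, against 3.38% of all genes.

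The sterol and fatty acid arms were set side by side by their medians in each line. The sterol arm had median log2 ratios of -0.71 in MOLM-14 cells, -1.02 in NOMO-1 cells and -0.52 in SKM-1 cells. In the fatty acid arm these medians were -0.64 for MOLM-14, -0.71 for NOMO-1 and -0.12 for SKM-1. The sterol arm was the lower one in all 3 lines, by a log2 difference of -0.07, -0.31 and -0.40, or -0.26 ± 0.17 on average (SD, n = 3 lines). No test was made of this difference, because the genes were chosen with results known. As a share of gene-assigned reads, the sterol arm took 0.289%, 0.348% and 0.283% in the MOLM-14, NOMO-1 and SKM-1 knockdown libraries, against 0.484%, 0.666% and 0.287% in the controls. The fatty acid arm took 0.300%, 0.242% and 0.251% in the knockdown libraries, against 0.470%, 0.428% and 0.252% in the controls. SKM-1 control cells thus already held a share of sterol arm reads as low as that of the knockdown cells of MOLM-14, and the 2 SKM-1 libraries hardly differed in either sum. For the sterol arm this near equality rests on LBR. LBR was left out here after its values were seen, and no gene was left out of the fatty acid arm. The other 21 sterol arm genes summed to 71682 normalized reads in SKM-1 knockdown cells, against 111051 in the control. That is a ratio of 0.645, beside 0.549 in MOLM-14 and 0.461 in NOMO-1. In the fatty acid arm 8 of the 12 genes were lower in SKM-1, and 4 were higher, among them ME1, FADS1 and ELOVL5. Of all 19575 genes tested, 9896 were lower in SKM-1 and 9399 higher.

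**Figure D3:**
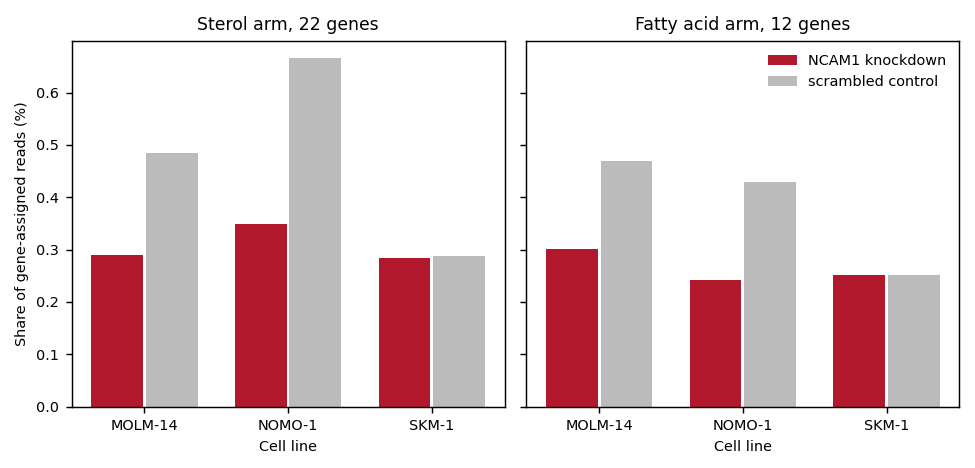
Share of gene-assigned reads (%) taken by the 22 sterol arm genes (left) and the 12 fatty acid arm genes (right) in the knockdown and the control library of each line, 1 library per bar. Knockdown bars are lower than control bars in MOLM-14 and NOMO-1, as at 0.348% against 0.666% for the sterol arm in NOMO-1. In SKM-1 they are nearly equal. There the sterol arm without LBR, left out after its values were seen, had a ratio of 0.645.

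Across the 34 genes the log2 ratios of MOLM-14 and NOMO-1 were correlated at 0.77 (Pearson) and 0.67 (Spearman), against 0.15 and 0.21 over all genes. Between MOLM-14 and SKM-1 they were 0.65 and 0.22, and between NOMO-1 and SKM-1 0.52 and 0.32, with ME1 as the extreme point in both. Within the sterol arm alone r was 0.77 between MOLM-14 and NOMO-1, 0.13 between MOLM-14 and SKM-1 and 0.38 between NOMO-1 and SKM-1. The genes are not independent replicates, and the 2 libraries of a line are shared by all its ratios, so these values describe and test nothing.

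**Figure D4:**
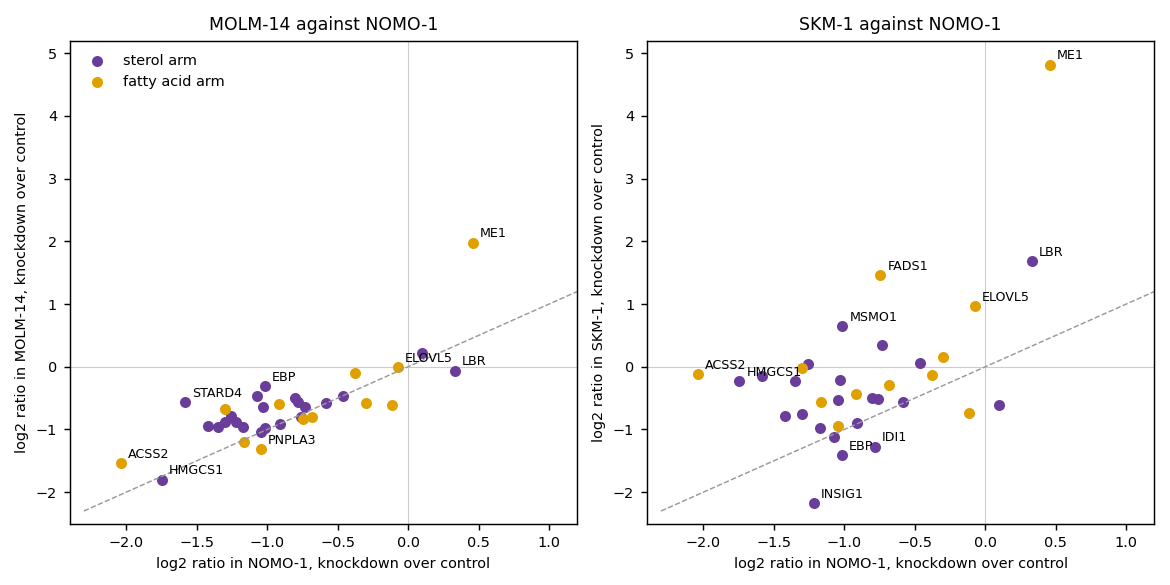
Log2 ratio of knockdown over control in MOLM-14 (left) and SKM-1 (right) against that in NOMO-1, 1 point per gene, with a dashed line of equal ratios. Most points of the left panel lie between 0 and -2 on both axes, and in the right panel FADS1, MSMO1, LBR and ELOVL5 lie above 0 while INSIG1, EBP and IDI1 lie below the line.

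The lines also differed in the level of several genes, averaged over the knockdown and the control library of each line. In SKM-1 against the mean of the other lines, 6 of the 34 genes were lower at an adjusted p under 0.05 in limma and at least 2-fold, against 8.18% of all genes, and 1 was higher, against 7.4%. The lower ones were HMGCS1 (log2 difference -3.81, adjusted p = 0.0069 in limma), CYP51A1 (-1.82, 0.0146), MVK (-1.64, 0.0100), INSIG1 (-1.51, 0.0369), ACAT2 (-1.35, 0.0168) and IDI1 (-1.05, 0.0370), all of the sterol arm. The call of INSIG1 was lost under quantile normalization (adjusted p = 0.0554 in limma), without a filter (0.0697) and with edgeR (adjusted p = 0.0538), and that of IDI1 without a filter (adjusted p = 0.0648 in limma). PMVK was the higher one, at a log2 difference of 1.10 (adjusted p = 0.0494 in limma), a call lost under 4 of the other settings. In MOLM-14 against NOMO-1, ELOVL6 (log2 difference -2.26, adjusted p = 0.0103 in limma) and CYP51A1 (-1.92, 0.0213) were lower, 2 of 34 against 8.01% of all genes. INSIG1 was higher in MOLM-14, at 1.72 (adjusted p = 0.0431 in limma), 1 of 34 against 5.26%, and this call was also lost under other settings. Each line contributes 1 knockdown and 1 control library here, with the condition as a term of the fit.

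Other genes of the same metabolism gave a mixed picture. Of 11 further sterol synthesis genes and SREBP2 targets, 9 had a lower mean, against 50.6% of all genes, 6 were lower in all 3 lines, against 15.9%, and 4 were lower at an unadjusted p under 0.05 in limma, against 2.89%, with a median of -0.49. TMEM97, a sterol-responsive membrane protein, and C14orf1 (now ERG28), a scaffold of the demethylation enzymes, had mean log2 ratios of -0.91 and -0.62. The 13 genes of SREBP processing gave a median of -0.06, with 0 lower at an unadjusted p under 0.05 in limma, against 2.89% of all genes, and C12orf49 (now SPRING1), VCP and ERLIN2 had the smallest p. Among 12 genes of the isoprenoid branch the median was 0.02, again with 0 lower at that p, against the same 2.89%, led by the protease ZMPSTE24 and the prenyltransferase subunits FNTB and PGGT1B. For the 10 genes of sterol efflux, esterification and LXR the median was -0.35, with 7 lower by their mean, against 50.6%. At that p 0 were lower, against 2.89%, and the lipase LIPA, the esterifying enzyme SOAT1 and the LXR gene NR1H3 came first. Genes of these lists were named by their two-sided p, whatever their direction. Mean log2 ratios ran from -0.35 to 0.54 in SREBP processing, -0.52 to 0.51 in the isoprenoid branch and -0.78 to 0.54 in the efflux list.

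The medians of the wider fatty acid lists were near 0. Over 25 other genes of fatty acid and glycerolipid synthesis the median was 0.01, with 11 lower by their mean, against 50.6%, and 1, against 2.89% of all genes, the citrate carrier SLC25A1 (mean log2 ratio -0.54), lower at an unadjusted p under 0.05 in limma. TECR, the last enzyme of the elongation cycle, and ACACB, the mitochondrial acetyl-CoA carboxylase, followed it by two-sided p. Fatty acid oxidation, with 19 genes, had a median of -0.05 and 1 gene lower at that p, against the same 2.89%, CPT1A, which brings fatty acids into mitochondria (mean log2 ratio -1.12). ECI2 and the carnitine carrier SLC25A20 followed it by two-sided p.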

How the data were processed

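The 34 genes and the other lists were chosen with earlier results of these data known. The values used are the authors' deposited signal, that is read counts per gene scaled by a size factor per library. A log2 transformation, also deposited by the authors, served as an alternative. The submitters' processing notes name STAR, HTSeq 0.6.1p1, bcl2fastq 1.8.4, DESeq2 1.12.4 and hg19. Annotation and strand setting are unknown here, so overlapping genes cannot be told apart. Among others this holds for HMGCS1 (703 exon bases shared with an antisense gene), SREBF1 (556 with RAI1) and MVK (306 with MMAB). Whole reads were recovered for 100% of values (tolerance 0.001).

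Those of the 34114 genes with a mean of at least 10 (19575) were tested with limma 3.58.1 in R 4.3.3 (trend, two-sided, Benjamini-Hochberg) on log2(normalized count + 1), which understates the change of low genes, with the line as a block. The libraries of a line are paired by their cells; their deviations from group means correlated at 0.850 (MOLM-14), 0.863 (NOMO-1) and 0.710 (SKM-1). There are 2 residual degrees of freedom. Line contrasts came from that fit. edgeR 4.0.16 and DESeq2 1.42.0 used the recovered reads. Values in every library are given for NCAM1, called genes, the 6 sterol and 4 fatty acid genes of smallest p, genes of opposite ratios, SREBF1, SREBF2 and INSIG1, and LBR and ME1 after their values were seen. Other lists name up to 3 genes of smallest p, of which 1 is not reported here. Alternatives were other pseudocounts (0.5, 8), filters (none, 50) and scalings, no block, no trend, and leaving out each line. Exon lengths and overlaps are from GENCODE on GRCh38. The steps were tested on simulated data without differences between lines, so that test does not cover lines that differ as these do.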

Additional observations from a re-analysis of the deposited data

Results flagged for a closer look

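For 2 of the 34 genes the lines moved at least 1.5-fold in opposite directions. The share of all genes that did so was not counted. Taken singly, 25.3% of all genes were at least 1.5-fold higher in SKM-1. At least 1.5-fold lower were 9.15% in MOLM-14 and 16.8% in NOMO-1. MSMO1 had a log2 ratio of knockdown over control of -0.97 in MOLM-14 and -1.01 in NOMO-1, and of 0.64 in SKM-1. FADS1 had -0.83 in MOLM-14 and -0.75 in NOMO-1, and 1.46 in SKM-1. The difference between lines was not tested, because each line has 1 pair of libraries.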

How the results depend on the processing

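With all 3 lines, 369 of 374 values of single genes kept their direction and their side of the adjusted threshold, 4 became called (DESeq2), and 1 reversed, FADS1 at 0.017 under quantile normalization. Over the same 374 values, 19 crossed an unadjusted p of 0.05, 12 of them without the block. With 1 line left out, 98 of 102 kept their direction; FADS1 ran from -0.79 to 0.36, PMVK from -0.26 to 0.16 and ELOVL5 from -0.040 to 0.48. Limma and edgeR called 0 genes, and DESeq2 called 43, of which 4 were among the 34. Without the replicate block, 9 of the 34 were lower at an unadjusted p under 0.05, against 20 with the cell line as pairing. Leaving out 1 line gave 6 to 28. Of these counts only the 20 has a share of all genes beside it, 2.89%. The count at least 1.5-fold lower in every line used was 7 to 20 with 1 line left out. PMVK as higher in SKM-1 was lost (0 genes) under quantile normalization, a pseudocount of 8, no filter and edgeR, and INSIG1 as higher in MOLM-14 (0 genes) under quantile normalization, no filter and edgeR. The cause of these changes was not tested. The medians of both arms kept their sign under each alternative run, at -0.62 to -0.87 (sterol) and -0.43 to -0.75 (fatty acid) with 1 line left out. With 1 library per line and condition, no value within a line has a replicate.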

Other observations

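PGD, an enzyme of the pentose phosphate pathway that also makes NADPH, was named here after its values were seen, because ME1 stood apart. PGD had 9478, 13859.8 and 44026 normalized reads in the MOLM-14, NOMO-1 and SKM-1 knockdown libraries, against 9772, 10964 and 9688 in the controls. It was highest in the SKM-1 knockdown library, 4.54-fold above its control, and near its control in MOLM-14. In that SKM-1 library ME1, LBR, FADS1 and ELOVL5 were higher than in its control too. Across the 3 lines PGD did not pass the test (unadjusted p = 0.139 in limma, adjusted p = 0.779).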
